A study of Bos taurus with 20 samples.

Results

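CTNND2 encodes delta 2 catenin, a member of the armadillo repeat proteins that is best known from neurons. It was the gene with the strongest slope on calf birth weight (BW) in maternal blood, and that slope is what chose it. Strongest here means the lowest p of all genes tested, not the steepest slope. CTNND1, which encodes p120 catenin, was set beside it as its close relative with broad expression. These are 2 genes of the 37063 listed in the count files, and both were among the 16206 genes tested. The values that chose CTNND2 were its counts in 19 of the 20 cows together with the BW of their calves, so its relation to BW is described here without a test.

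Whole blood was collected at day 63 of gestation from 20 recipient cows, with 1 library per cow and BW from 30.0 to 72.5 kg (mean 45.0 ± 10.1 kg, SD, n = 20). Each recipient carried a single female fetus from an in vitro embryo made with an oocyte of an Angus (beef) donor and sex-sorted semen. All cows were thus pregnant recipients of embryos not their own, and no cow without a pregnancy was sampled. The study's methods call the recipients lactating dairy cows while its list of datasets gives their breed as Angus and spans young to old cows, and the labels give neither breed nor age. Cows were placed by the weight on the label of each calf in a light range (under 40 kg, n = 7), a middle range (40 to under 50 kg, n = 7) and a heavy range (50 kg or more, n = 6). These ranges were set for the description and are not groups of the study, in which BW is continuous. The slopes leave out the cow of the 72.5 kg calf and rest on 19 cows. Leaving that cow out follows the methods of the study.

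Delta catenins bind the part of classical cadherins that lies just inside the cell membrane and keep these adhesion proteins at the cell surface. Away from the junction they act on small GTPases that shape the actin cytoskeleton, and p120 catenin also binds the repressor Kaiso. In neurons, delta 2 catenin sits at synapses and in growing dendrites, and the human gene lies in the region lost in cri-du-chat syndrome. p120 catenin is found in most cells, blood leukocytes included.

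The libraries held 24632077 to 39892111 counts in total (median 33412740). The white blood cell markers CSF3R, CD3E and CD79A were present in every library. The neutrophil receptor CSF3R was between 1106 and 2450 CPM (counts scaled to the effective library size). The T cell gene CD3E was between 165 and 286 CPM and the B cell gene CD79A between 84.5 and 151 CPM. Of the red cell genes, HBB ran from 46.6 to 1049 CPM. HBA had a median of 0.449 CPM and a count in 18 of 20 cows. Of 19 trophoblast genes found in the files, 14 had no count in any cow, including 7 of the 9 listed pregnancy-associated glycoproteins, and the other 2, PAG8 and PAG11, had at most 12 counts in a cow. How reads that match several genes were treated is not known, so these zeros cannot show that the RNA was absent. The library of the cow of the 30 kg calf stood apart in neural genes: 9 of 15 listed neural genes were highest in it. The synaptic gene SNAP25 was at 15.5 CPM there against 1.87 CPM in the next cow. The share of all genes that were highest in this library is not given here. The same library also had the lowest total count and the highest mean z-score of interferon-stimulated genes, 3.04 against 0.768 in the next cow.

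CTNND2 was lower the heavier the range. In the blood of the 7 cows of light calves it was between 3.48 and 14.5 CPM with a median of 11.9 CPM. In the middle range it was between 2.02 and 15.5 CPM with a median of 4.48 CPM. In the heavy range the 6 cows were between 1.12 and 4.93 CPM with a median of 1.91 CPM. The ratio of the medians was 6.22 for light over heavy, 2.65 for light over middle and 2.35 for middle over heavy. On the log2 scale the means were 3.32 ± 0.70 (SD, n = 7), 2.42 ± 1.10 (SD, n = 7) and 1.08 ± 0.73 (SD, n = 6). The ranges overlapped: 6 of 7 cows of light calves were above every cow of a heavy calf, but the light and middle cows lay among each other, as did the middle and heavy cows. Since these are bulk samples, fewer cells of a type and less RNA per cell cannot be told apart.

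Cow by cow, the level was high up to a BW of 43 kg and low from 45 kg on. In order of BW, the light cows had 9.24 CPM (30 kg), 11.9 CPM (32 kg), 3.48 CPM (35 kg), 14.5 CPM (36 kg), 12.3 CPM (37 kg), 12.9 CPM (38 kg) and 11.1 CPM (39 kg). The next cows in BW had 10.97 CPM (40 kg), 15.5 CPM (41.5 kg) and 8.33 CPM (43 kg), and here the high values ended. The other middle cows had 2.50 CPM (45 kg), 3.77 CPM (46 kg), 4.48 CPM (47.4 kg) and 2.02 CPM (49.5 kg). The heavy cows had 4.93 CPM (50 kg), 1.59 CPM (53 kg), 1.67 CPM (54 kg), 2.15 CPM (55 kg), 1.12 CPM (56 kg) and 2.56 CPM (72.5 kg). Of the 10 cows of calves up to 43 kg, 9 were above all 10 cows of calves from 45 kg, and the cow of the 35 kg calf was the exception. The medians on either side were 11.5 and 2.33 CPM. This division was noticed after the values were seen and carries no test.

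The counts behind these levels ran from 29 (56 kg) to 578 (41.5 kg). Counting error alone gave a 95% exact Poisson interval of 0.748 to 1.60 CPM around the lowest value and of 14.2 to 16.8 CPM around the highest, so it was small beside the spread between cows. When the cows were put in order of CTNND2, the largest step in fold lay between 8.33 and 4.93 CPM, a ratio of 1.69, with 9 cows above it and 11 below.

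**Figure D1:**
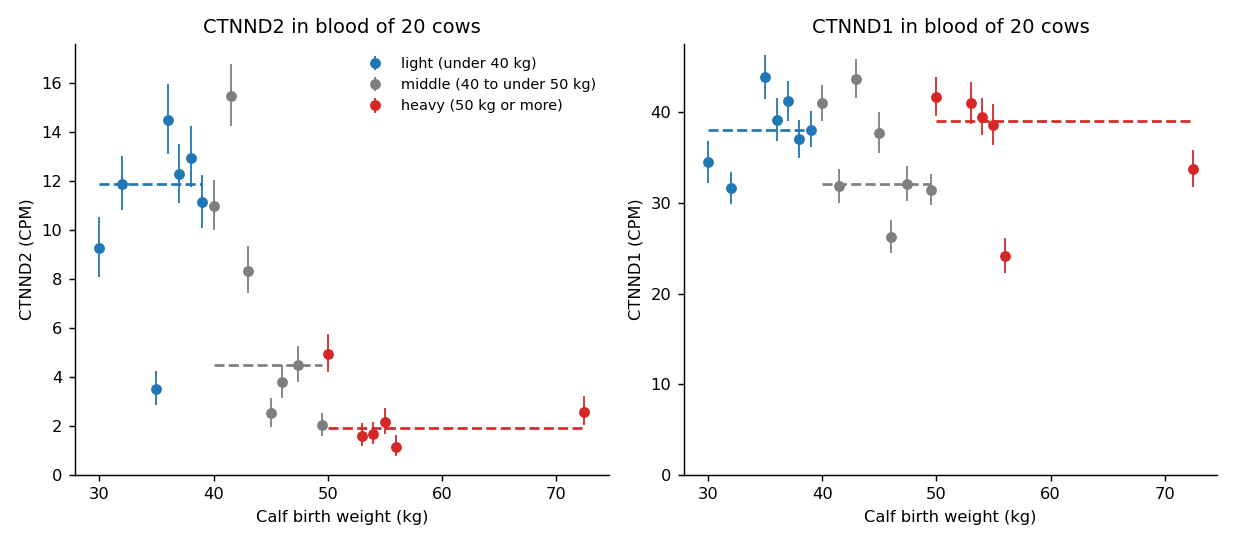
CPM of CTNND2 (left) and CTNND1 (right) in each of 20 cows against calf birth weight in kg, coloured by range. Points are single cows with 95% exact Poisson intervals for counting error, and dashed lines are range medians. CTNND2 lay between 8.33 and 15.5 CPM in 9 of the 10 cows of calves up to 43 kg and between 1.12 and 4.93 CPM in all cows from 45 kg, while CTNND1 lay between 24.2 and 43.9 CPM with no such step.

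In the edgeR fit of the 19 cows, the slope of CTNND2 was -0.135 log2 CPM per kg of BW (SE 0.0231). Its size was 5.85 times its SE, just ahead of SRPK2, a kinase of splicing factors, at 5.82 times (slope 0.0337, SE 0.00579) and of GBP5, an interferon-induced GTPase, at 5.43 times (slope -0.0362, SE 0.00667). By the size of the slope alone CTNND2 was in place 27 of all genes tested, and in place 5 of the 11226 genes whose mean CPM was at most 2-fold below its own. Its place at the head of the list was narrow. When 1 cow was left out in turn it was the first gene by p in 7 of 19 fits and never below place 5, whereas it was in place 50 with voom, in place 20 with all 20 cows and in place 19 with DESeq2, which tested 23087 genes. The slope itself stayed between -0.150 and -0.127 with any of the 19 cows left out, and came to -0.150 when the cow of the 30 kg calf was missing, whose library was high in neural genes. Within the ranges, the slope of log2 CPM was 0.04 per kg over the 7 light cows, -0.28 over the 7 middle cows and -0.30 over 5 heavy cows, so the decline was not seen inside the light range.

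The cow of the 72.5 kg calf gives a value that the choice of CTNND2 did not use. CTNND2 was at 2.56 CPM there (77 counts), inside the span of the other 5 heavy cows (1.12 to 4.93 CPM) and above their median of 1.67 CPM. A straight line through log2 CPM of the 19 cows (slope -0.13 per kg, SD around the line 0.75) runs to -1.30, or 0.406 CPM, at that weight, against a measured log2 CPM of 1.38. This cow was thus low, as the other heavy cows were, but not as low as the line. It is 1 animal, and no test was made on it.

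The spread of CTNND2 between cows was wide for a gene of its level. The highest cow was 13.8 times the lowest, and the SD of log2 CPM over 20 cows was 1.24. Of 3058 genes with a mean CPM within 2-fold of CTNND2, 98.7% had a smaller SD, and their median SD was 0.25. This SD includes the part that follows BW, so a wide spread was favoured by the choice of CTNND2. After the slope was fitted, the biological coefficient of variation was 0.462 against a median of 0.175 for those genes, 96.2% of which were lower. Hence CTNND2 also varied between cows in a way that a straight relation to BW did not take up. The spread of CTNND1 was 1.82 times from lowest to highest with an SD of log2 CPM of 0.23, where the median SD of 4225 genes of like level was 0.14. No relation to library depth was detectable for either gene. Pearson's r of log2 CPM with the log total count was 0.28 for CTNND2 (permutation p = 0.236, n = 20) and 0.15 for CTNND1 (permutation p = 0.517, n = 20).

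CTNND1 differed little between ranges. It was at 31.6 to 43.9 CPM with a median of 38.1 CPM in the light range, at 26.3 to 43.7 CPM with a median of 32.2 CPM in the middle range, and at 24.2 to 41.7 CPM with a median of 39.1 CPM in the heavy range. All 3 ranges overlapped. Its slope on BW was -0.0057 log2 CPM per kg (SE 0.0066) with a 95% interval of -0.0194 to 0.0080 (edgeR quasi-likelihood test, adjusted p = 0.755, n = 19), so a slope as steep as that of CTNND2 lies outside its interval. CTNND2 was chosen for its slope, so this does not set CTNND1 apart from other genes. None of the 16206 genes (0%) passed an adjusted p of 0.05 in this test, and 2247 (13.9%) had an unadjusted p below 0.05. With voom 0 genes and with DESeq2 189 of 23087 genes passed the adjusted threshold, and CTNND1 was not among them by either tool. The mean log2 CPM of CTNND1 in the heavy range was 0.07 below that in the light range (two-sided exact permutation test, p = 0.645, n = 7 and 6). The sign of both values turned on the cow of the 56 kg calf, which had the lowest CTNND1 at 24.2 CPM and without it the slope came to 6.56e-05 and the heavy range was 0.04 above the light range (exact permutation p = 0.643, n = 7 and 5).

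No correlation between the 2 delta catenins was detectable across cows. Pearson's r of their log2 CPM was 0.24 (permutation p = 0.303) and Spearman's rho was 0.08 (permutation p = 0.725) over 20 cows. Without the cows of the 46 and 56 kg calves, which were farthest from the median of CTNND1, r was -0.06 (permutation p = 0.799, n = 18). After a linear fit of both genes on BW it was 0.13 (permutation p = 0.577, n = 20). The cow of the 35 kg calf shows how far apart they could be, with the highest CTNND1 of all cows (43.9 CPM) and the lowest CTNND2 of the light range (3.48 CPM). Levels of the 2 genes were not compared with each other, because transcript lengths were not used here.

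The other delta catenins had slopes nearer to 0 than that of CTNND2, as nearly all genes tested did, since CTNND2 was chosen for its slope. Of the 6 other members, 0 passed the adjusted threshold and 1 had an unadjusted p below 0.05. That member was PKP2, a plakophilin of desmosomes, and its slope had the opposite sign (0.0339 per kg, SE 0.0151, edgeR adjusted p = 0.321, n = 19). PKP2 was scarce, from 0.455 to 2.62 CPM, and its Spearman correlation with CTNND2 was -0.57 over 20 cows. ARVCF, the family member deleted in velocardiofacial syndrome, had a slope of -0.018 (SE 0.017). PKP4, a junction protein expressed in many tissues, had a slope of 0.0071 (SE 0.0065) at a median of 8.90 CPM. PKP1 (slope 0.0049, SE 0.018) and PKP3 (slope 0.055, SE 0.062) are desmosomal plakophilins with medians under 1 CPM, and PKP3 had a count in 15 of 20 cows, so slopes of this size could not be told from 0 at this depth.

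Among the 7 other catenins, 0 passed the adjusted threshold and 0 had an unadjusted p below 0.05. CTNNB1, beta catenin, which carries the Wnt signal as well as adhesion, was nearly constant at 93.0 to 106 CPM (slope 0.0021, SE 0.0019). CTNNA1, alpha catenin, which ties the cadherin complex to actin, was at 99.5 to 181 CPM (slope -0.010, SE 0.0058). CTNNAL1 (slope 0.0066, SE 0.0084), an alpha catenin-like protein, and CTNNBIP1 (slope 0.0032, SE 0.0051), an inhibitor of beta catenin, had slopes of about the size of their errors or less. The slopes of CTNNA3 (-6.39e-05, SE 0.022), CTNNA2 (-0.0065, SE 0.027) and JUP, plakoglobin (-0.024, SE 0.044), were known less well, since CTNNA2 and JUP were at medians of 0.273 and 0.262 CPM.

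**Figure D2:**
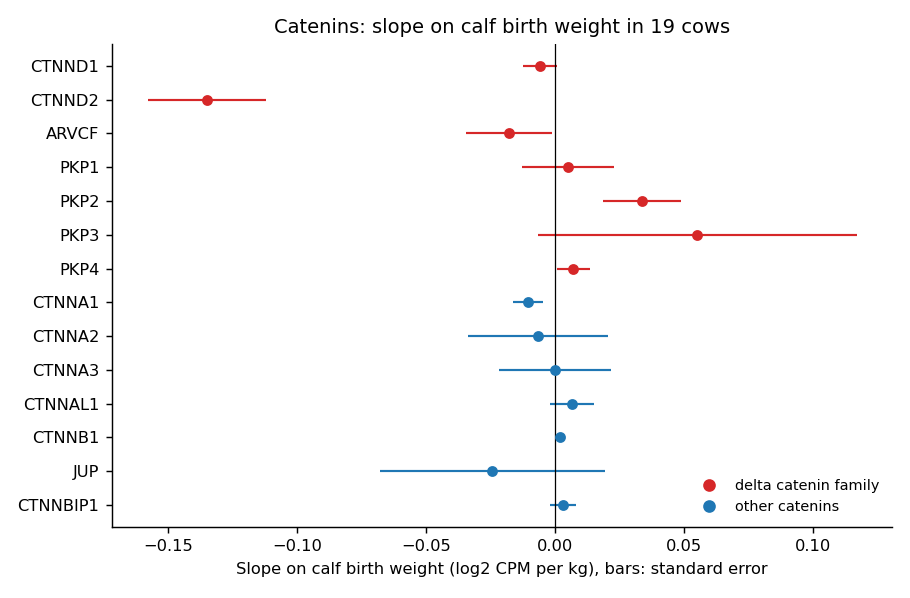
Slope on calf birth weight (log2 CPM per kg) of 7 delta catenin family genes and 7 other catenins from the edgeR fit of 19 cows. Points are slopes and bars are standard errors. CTNND2 sits at -0.135, the value it was chosen by, and the other 13 genes sit between -0.024 and 0.055.

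Cadherins, the binding partners of delta catenins at the membrane, were mostly scarce in blood, and 10 of 24 had enough counts to be tested. None passed the adjusted threshold, and only CDH1, epithelial cadherin, had an unadjusted p below 0.05. CDH1 was at 12.4 to 68.7 CPM and had a slope of 0.0398 (SE 0.0157, edgeR adjusted p = 0.258, n = 19), opposite in sign to CTNND2. The Spearman correlation of the 2 genes was -0.52 over 20 cows.

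Of 27 partners of delta catenins (small GTPases and their regulators, kinases, scaffold proteins and Kaiso), 0 passed the adjusted threshold and 3 had an unadjusted p below 0.05. ZBTB33, which encodes Kaiso, had a slope of 0.0099 (SE 0.0035, adjusted p = 0.215) and ARHGAP35, an inhibitor of RhoA, had 0.0067 (SE 0.0032, adjusted p = 0.348). KALRN, an exchange factor for small GTPases at synapses, had -0.019 (SE 0.0078, adjusted p = 0.270). These adjusted p-values are from edgeR in 19 cows. RHOA, RAC1 and CDC42 themselves were among those without an unadjusted p below 0.05.

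In the 21 genes of Wnt signalling and transcription, 0 passed the adjusted threshold and 5 had an unadjusted p below 0.05. APC, of the complex that degrades beta catenin, had a slope of 0.0079 (SE 0.0030) and the kinase CSNK1D had 0.0053 (SE 0.0025). PYGO2, a coactivator of beta catenin, had -0.0069 (SE 0.0028), the corepressor TLE3 had -0.0083 (SE 0.0034) and the signal transducer DVL1 had -0.0088 (SE 0.0036). Their adjusted p-values were 0.248 to 0.344 (edgeR, 19 cows). Over the catenin, cadherin, partner and Wnt lists, 10 of 71 genes other than CTNND2 had an unadjusted p below 0.05, 6 with a positive slope and 4 with a negative one. This is 14.1% of them, beside 13.9% of all genes tested ( 6.78% positive and 7.08% negative). The count came to 5 when the cow of the 56 kg calf was missing, while over all genes it went from 2247 of 16206 to 1605 of 16159.

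The genes on either side of CTNND2 on its chromosome also had slopes nearer to 0, as nearly all genes tested did. In the gene order of the ARS-UCD2.0 assembly, the 5 measured genes nearest before it were OTULIN and its relative OTULINL, LOC132343250, TRIO and DNAH5, and the 5 nearest after it were LOC104975286, DAP, ANKRD33B, LOC112443012 and ROPN1L. None of the 10 had an unadjusted p below 0.05 (edgeR, 19 cows). TRIO, an exchange factor for small GTPases, had a slope of 0.0032 (SE 0.0030), DAP, a regulator of autophagy, had 0.00080 (SE 0.0032), and OTULIN, an enzyme that removes linear ubiquitin chains, had -0.0043 (SE 0.0037). Their Spearman correlations with CTNND2 over 20 cows ran from -0.54 (LOC132343250, a lncRNA) to 0.36 (DNAH5, a dynein chain with at most 16 counts). The 5 small genes annotated inside the span of CTNND2, among them a lncRNA, had no count in any cow.

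The genes most like CTNND2 across the 20 cows were ranked by Spearman's rho of log2 CPM, as a description without p-values, since the points share 1 library each. Only 14 of 16268 other genes reached a rho of 0.7, and 71 were at -0.7 or lower. The strongest partners were on the negative side. OSGIN2, a relative of a growth inhibitor induced by oxidative stress, was at -0.85, and it ranged from 15.2 to 24.2 CPM. APAF1, the scaffold of the apoptosome, was at -0.83 with range medians of 47.4, 54.1 and 55.1 CPM from light to heavy. KAT7, a histone acetyltransferase, was at -0.83 with range medians of 61.9, 64.4 and 67.3 CPM. ZNF461, a zinc finger protein, was at -0.82 and UGGT1, which checks the folding of glycoproteins in the endoplasmic reticulum, was at -0.82. These 5 genes spanned less than CTNND2 did, and ZNF461, the widest of them, ran from 1.53 to 3.38 CPM.

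On the positive side the partners were mostly rare transcripts. The pseudogene LOC783201 led with a rho of 0.79, and its range medians were 1.79, 0.900 and 0.697 CPM from light to heavy. LOC786614 followed at 0.78 with a median of 0.301 CPM over all cows. TMOD1, which caps actin filaments and is known from red cells, was at 0.77 with a median of 0.379 CPM. PGLYRP1, a peptidoglycan-binding protein of neutrophil granules, was also at 0.77 with range medians of 1.04, 0.560 and 0.157 CPM. The other 6 were LOC112441875 (0.75), ZFAND5 (0.73), TAF4B (0.73), LOC132342938 (0.72), LOC112443022 (0.71) and LOC101907089 (0.71). Of these, ZFAND5, a zinc finger protein of the ubiquitin system, was the only one with a median above 20 CPM, at 50.9 CPM, and TAF4B, a subunit of the general transcription factor TFIID, was at 10.1 CPM. LOC112443022, a lncRNA at 0.329 CPM, is on the same chromosome as CTNND2 but is not among its neighbours.

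The ranking was repeated on what remained after a linear fit of each gene on BW. OSGIN2 kept a rho of -0.81 and LOC783201 kept 0.73. PGLYRP1 was at 0.12 and LOC786614 at 0.32 after this step. The 5 highest were then LOC783201, the lncRNA LOC112447068 (0.72), the heat shock protein HSPA6 (0.72), LOC112443022 (0.71) and the tubulin TUBA3E (0.71), and 2 of them had been among the 10 highest before. With any 1 cow left out, the rho of OSGIN2 stayed between -0.89 and -0.83 and that of LOC783201 between 0.76 and 0.84.

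CTNND2 belongs to the midnightblue coexpression module, which the study built from these same cows. The median rho of the 92 other measured genes of the module with CTNND2 was 0.48 (-0.11 to 0.78), against -0.003 over all genes, and 2 of the 10 genes most like CTNND2 belonged to it. Since the module was formed on these cows, this is not independent of the likeness above. CTNND1 had a different company, with 194 genes at a rho of 0.7 or more and 66 at -0.7 or lower. The leading ones, chosen after their values were seen, were the kinase ITPKC (0.90), the nuclear receptor PPARA (0.89) and the matrix protein EMILIN2 (0.88), whose rho with CTNND2 was 0.05, 0.17 and 0.16.

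**Figure D3:**
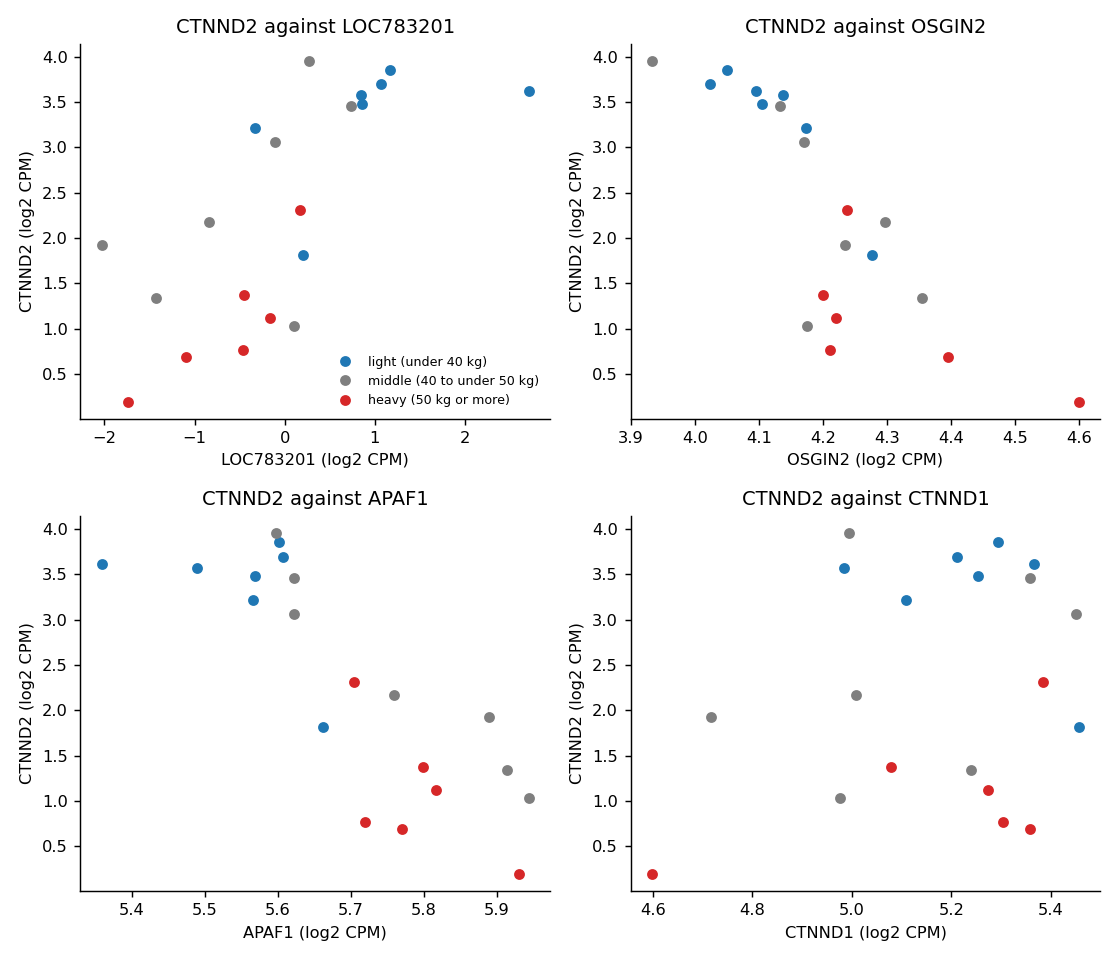
Log2 CPM of CTNND2 against log2 CPM of LOC783201, OSGIN2, APAF1 and CTNND1 in 20 cows, coloured by birth weight range. Each point is 1 cow. CTNND2 was high where LOC783201 was high (rho 0.79) and where OSGIN2 (rho -0.85) and APAF1 (rho -0.83) were low, and showed no clear course with CTNND1 (rho 0.08).

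Scores of blood cell markers, the mean z-score of each list in each cow, were set beside CTNND2 for 10 lists. Only the eosinophil list passed after adjustment over the 10, and it ran against CTNND2: Pearson's r was -0.62 (permutation p = 0.0034, adjusted p = 0.0342, n = 20) and Spearman's rho was -0.62 (permutation p = 0.0045, adjusted p = 0.0448, n = 20). The summed level of the eosinophil genes was 52.0 to 136 CPM in the light range, 41.3 to 252 CPM in the middle range and 127 to 314 CPM in the heavy range. The score rests on 3 genes with enough counts, the interleukin 5 receptor IL5RA, the prostaglandin receptor PTGDR2 and the sphingomyelinase SMPD3. All 3 had a positive slope on BW with an unadjusted p below 0.05 (edgeR), beside 6.78% of all genes tested. CTNND2 was chosen for its negative slope on BW, so a negative correlation with this score was favoured by that choice. The permutation p-values above are thus not independent of the choice and cannot show a relation apart from BW. The p-values of the other lists share this limit. Of 5 eosinophil genes found in the files, the defining receptor CCR3 and the lipoxygenase ALOX15 had no count in any cow. The monocyte gene CX3CR1 and the interferon-stimulated genes IFIT2 and IFIT3 had no count in any cow either. Whether such zeros reflect absent RNA or the counting of reads was not tested. Without the 2 cows with the most extreme scores r was -0.46, and after a linear fit on BW it was -0.46 (permutation test, adjusted p = 0.351, n = 20). With any 1 cow left out r was between -0.70 and -0.54, and the adjusted p was above 0.05 when the cow of the 36, 38, 40, 41.5, 45, 56 or 72.5 kg calf was missing (adjusted p up to 0.180 by permutation, without the 56 kg calf). The part of eosinophil number in the level of CTNND2 was not tested.

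Over all 20 cows the other lists gave smaller values for CTNND2. The neutrophil granule list, of primary and secondary granule genes, was at an r of 0.38, monocytes at 0.40, interferon-stimulated genes at 0.35, erythroid genes at 0.33 and platelets at 0.28, with adjusted permutation p-values of 0.320 to 0.380 (n = 20). Neutrophil markers (0.09), B cells (0.23), T cells (-0.14) and natural killer cells (0.12) were lower still. This order did not hold without the 2 cows with the most extreme scores of each list. The r was then 0.63 for platelets and 0.55 for the granule list, both larger in size than the -0.46 of the eosinophil list. The other lists stayed below it in size. The granule list also passed the adjusted threshold when the cow of the 35 kg calf was missing, as did the platelet list when that of the 54 kg calf was. CTNND1 had an r of 0.86 with the monocyte score, 0.58 with the neutrophil granule score, 0.57 with the neutrophil score and -0.41 with the eosinophil score. These are given as a description, and each had the same sign as for CTNND2.

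**Figure D4:**
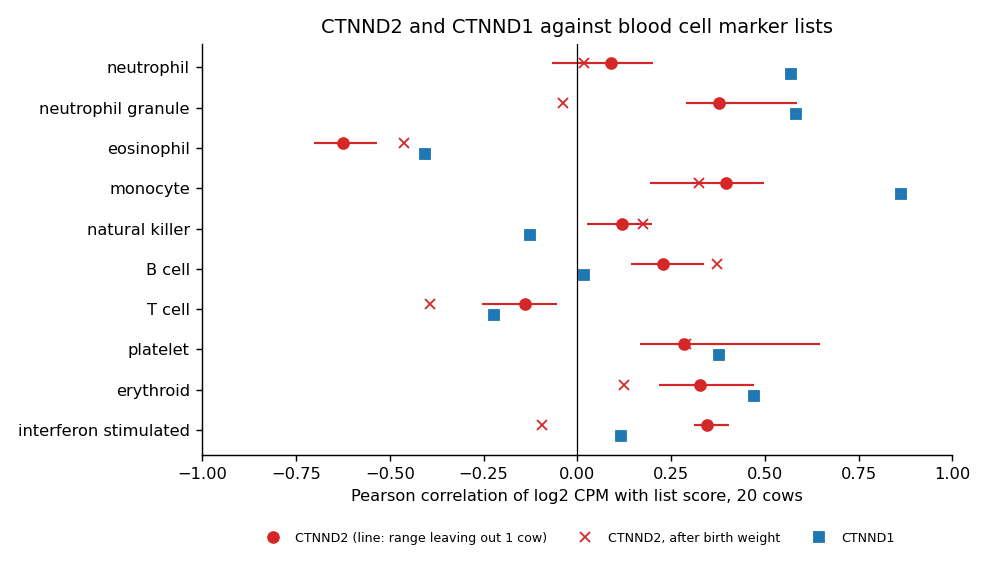
Pearson correlation over 20 cows of log2 CPM with the score of 10 marker lists. Red points are CTNND2 with lines for the range when 1 cow is left out, crosses are CTNND2 after a linear fit on birth weight, and blue squares are CTNND1. The eosinophil list lay at -0.62 for CTNND2 and the monocyte list at 0.86 for CTNND1. The latter includes the cows of the 46 and 56 kg calves, lowest in both CTNND1 and the monocyte score.

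Because CTNND2 is best known from neurons, neural genes were looked at in each range. Of 15 listed neural genes, 8 could be tested, 0 passed the adjusted threshold and 3 had an unadjusted p below 0.05, all with a negative slope, beside 7.08% of all genes with a negative slope and such a p. These were SNAP25 (slope -0.168, SE 0.0322), the synaptic vesicle gene SYP (slope -0.023, SE 0.0092) and the tubulin TUBB3 (slope -0.024, SE 0.011), and each was highest in the cow of the 30 kg calf. The summed level of the list, most of it from MBP, was 342 to 397 CPM in the light range, 330 to 395 CPM in the middle range and 332.5 to 405 CPM in the heavy range. CTNND2 in the cow with the most SNAP25 was 9.24 CPM, beside a light range median of 11.9 CPM, and its slope on BW was -0.150 without this cow. Whether the neural RNA in this library bears on CTNND2 was not tested.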

How the data were processed

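The deposited values are raw counts per Entrez identifier, without normalization. They came from reads that the authors cleaned in Trimmomatic, mapped to the cattle genome in STAR 2.7.0b and assigned to genes in featureCounts (Subread 2.0.3). For the libraries, the labels name a SMARTer Stranded kit but the paper a Truseq-stranded one. The strand setting and the treatment of reads that match several genes are not given in the sources used here. LOC genes, pseudogenes and members of gene families with close copies are therefore uncertain. All identifiers were named from a RefSeq table of ARS-UCD2.0, another build than that of the alignment, so no coordinates are given.

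Genes reaching 10 counts in 5 or more cows were fitted with edgeR 4.0.16 (R 4.3.3), TMM normalization and the quasi-likelihood test on BW in kg in 19 cows. Adjusted p-values are those of Benjamini and Hochberg over all genes tested. CPM used the TMM library sizes and log2 CPM a prior count of 1. Permutation tests were two-sided, with 100000 resamples over 20 cows. Each cow is a separate animal, and no batch is named in the labels. DESeq2 1.42.0, limma 3.58.1 with voom, other size factors, no filter, all 20 cows, the rank of BW, covariates and leaving out each cow were alternatives. The same alternatives for the chromosome neighbours were added after seeing the data. The edgeR fit was first run on simulated counts with known slopes.

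The members and the gene lists were chosen with earlier results of these data known. Named genes are the 10 highest and 5 lowest in Spearman correlation with CTNND2, the 5 highest after BW, all measured catenins, listed cadherins, partners and Wnt genes with an unadjusted p below 0.05, the next 2 genes in order of p, and the neighbours. Other genes, those of the cell lists among them, were named after their values were seen. The lists for neutrophil, neutrophil granule, eosinophil, monocyte, natural killer, B, T, platelet, erythroid and interferon-stimulated genes gave the scores. Sequences were not used here. Other steps ran in Python 3.11.15 (scipy 1.17.1, with pandas 2.3.3, numpy 2.4.6 and, for plots, matplotlib 3.10.9).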

Additional observations from a re-analysis of the deposited data

Results flagged for a closer look

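CTNND2 in the cow of the 35 kg calf stood apart from the other light cows. Its log2 CPM was 1.81 (3.48 CPM, 102 counts), while the other 6 cows of light calves were at 9.24 CPM or more. The gap to the nearest of them was 0.685 of the range of the 7 cows, above the limit of 0.568 for a group of that size. It was the only one flagged of the 6 groups examined, CTNND2 and CTNND1 in 3 ranges each, and chance flags about 1 in 20 groups. CTNND1 in the same cow was 43.9 CPM, the highest of the 20. Without this cow the slope of CTNND2 was -0.146 log2 CPM per kg.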

How the results depend on the processing

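The slope of CTNND2 kept its sign in every alternative run. These runs reuse the cows in which this slope chose the gene, so a kept sign was favoured by that choice and is no independent support. It was -0.100 per kg with voom and -0.086 with all 20 cows, -0.185 per step in the rank of BW, -0.136 with DESeq2 and -0.145 with the interferon score as a covariate, and from -0.150 to -0.127 with 1 cow left out. The slope of CTNND1 was between -0.0089 and 6.56e-05 with 1 cow left out, positive when the cow of the 56 kg calf was missing, and its interval is wide enough that small slopes of either sign remain possible. Its difference between heavy and light ranges went from -0.117 to 0.0405 with 1 cow left out, again positive only without that cow. The r of CTNND2 with CTNND1 was 0.013 to 0.324 with 1 cow left out. The count of listed catenin, cadherin, partner and Wnt genes with an unadjusted p below 0.05, 10 as reported, was 16 with no filter on low counts (of 85 genes, beside 3409 of 23087 over all genes) and 5 to 13 with 1 cow left out, the lowest when that same cow was missing (1605 of 16159 over all genes). Over all genes, 147 passed the adjusted threshold of edgeR without the filter and 4 with all 20 cows. Among the chromosome neighbours the count was 0 to 1, with 1 only when the cow of the 55 kg calf was missing. The count of marker lists that passed, 1 as reported, was 0 in 19 cows, 0 after a linear fit on BW and 0 to 2 with 1 cow left out. Of the 15 genes most like CTNND2 by Spearman's rho, 6 were among the first by Pearson's r and 4 after BW was fitted. Causes of these shifts were not tested. No paired analysis was possible because each cow gave 1 library and replicate numbers only name cows. Slopes rest on 19 animals, so small slopes of scarce genes such as PKP3, CTNNA2 and JUP could not be detected at this depth.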
